A study of Saccharomyces cerevisiae with 232 samples.

Results

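The 100 least translated messages of wild-type budding yeast, Saccharomyces cerevisiae, were followed across 57 strains that each lack a gene for tRNA modification. They were chosen from wild-type values alone. Of 6692 genes in the tables, 3968 had a mean wild-type RNA level of at least 20 RPKM (mapped reads scaled for gene length and library size) over 10 libraries and were neither mitochondrially encoded nor GCN4 or CPA1. These were ranked by (footprint mean + 1)/(RNA mean + 1), with the footprint mean taken over 14 wild-type libraries, and the lowest 100 were kept. The ratio runs up to 0.272 in the members. Because these levels chose the members, they are described here and not tested.

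A ribosome normally binds at the cap of a message, scans its leader and starts at the first ATG in a favourable setting. A message can be abundant and still carry few ribosomes when an upstream ATG captures the scanning ribosomes, when the leader is folded or paired, or when the counted RNA is not a message at all but a stable noncoding RNA read from the same strand. HAC1, the transcription factor gene of the unfolded protein response, is the textbook case of the paired leader: its retained intron pairs with the leader and holds translation off until the nuclease Ire1 removes the intron during stress.

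That pairing can be read directly in the genome (RefSeq R64 assembly, the build of sacCer3). The 2 stretches below are shown because the capitals mark the 11 bases of the HAC1 leader, 32 to 22 bases before the start codon, that are complementary to the 11 capital bases in its intron of 252 bases (chrVI:75840-76091). The leader stretch lies at chrVI:75139-75165 and the intron stretch at chrVI:75936-75962, both on the + strand.
HAC1 leader: acaacctcCTCCTCCCCCAcctacgac
HAC1 intron: ttctctgaTGGGGGAGGAGccggttaa
An ATG upstream of the start was found more often in the members than in other genes, so 30 bases of 4 of them are shown, ending with the start codon, with every ATG in capitals. They lie at chrXVI:271283-271312 (+ strand) for ATG5, chrX:647099-647128 (+ strand) for DMO1, chrV:86152-86181 (+ strand) for MTC7 and chrXIII:191765-191794 (− strand) for RRN11. The gene HYP2 lies only 29 bases upstream of MTC7. Whether an ATG shown here lies within the leader of its message was not tested.
ATG5: cggagataggaaacctATGATGtaagtATG
DMO1: acatatatATGtatttcctttcacgtgATG
MTC7: cggttaacatcATGgcATGggatataaATG
RRN11: attaaattctaatATGATGcataaaccATG
Overlap with a noncoding RNA gene is shown by the first 60 bases of the 216 that the reading frame YGL088W shares with SNR10, a small nucleolar RNA (snoRNA) gene, at chrVII:345986-346045 (+ strand), and by 60 bases of the intron of NOG2 that belong to the snoRNA gene SNR191, at chrXIV:722152-722211 (− strand). These 2 carry no capitals.
YGL088W and SNR10: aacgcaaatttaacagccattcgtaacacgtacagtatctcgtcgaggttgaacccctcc
NOG2 and SNR191: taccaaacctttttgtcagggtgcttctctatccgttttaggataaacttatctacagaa

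The strains were haploids of the BY4741 background, mating type a, and each deletion is a kanMX replacement, so that elp3D carries elp3D::kanMX. The first group was the Elongator pathway (elp1D, elp2D, elp3D, elp4D, elp5D, elp6D, kti11D, kti12D and kti13D), which builds the carboxymethyl side chain on wobble uridines. The next was the thiolation pathway (urm1D, uba4D, tum1D, ncs2D and ncs6D), which adds sulfur to the same uridines, and the last was KEOPS (bud32D, gon7D and cgi121D), the complex that puts the threonylcarbamoyl group beside the anticodon. Each was set against the 40 remaining strains, which were dus1D, dus2D, dus3D, dus4D, isu1D, isu2D, mod5D, pus1D, pus2D, pus3D, pus4D, pus5D, pus7D, pus9D, rit1D, rtt10D, sap185D, sap190D, sit4D, tad1D, tan1D, trm10D, trm112D, trm11D, trm12D, trm13D, trm140D, trm1D, trm2D, trm3D, trm44D, trm4D, trm732D, trm7D, trm82D, trm8D, trm9D, tyw1D, tyw3D and tyw4D. Among the remaining strains sit4D lacks a phosphatase needed for Elongator function and trm9D a wobble methyltransferase. An alternative setting leaves trm9D, trm112D and sit4D out of the reference. All strains grew in rich medium (YPD) at 30 °C. Per the labels, footprints and RNA were both taken after 30 s in 100 µg/mL cycloheximide, which arrests elongating ribosomes. Footprints, the pieces of message shielded by a ribosome, were sequenced in 2 libraries of a strain (1 of kti13D) and RNA in 1. Another 6 footprint libraries (elp3D, mod5D, tan1D, trm7D, tyw4D and BY4741) had no drug, and their deletion is given by the title alone. No label says whether libraries came from separate cultures or clones, so p-values measure the spread between these samples. The cultures were sampled in bulk, so fewer cells with a message and less message per cell cannot be told apart.

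Recovered depth was 0.811 to 16.3 M reads in the 127 drug-treated footprint libraries (median 3.11), 3.77 to 14.2 M in the 67 RNA libraries (median 10.4) and 3.42 to 7.38 M in the drug-free ones. RNA of the deleted gene lay under 20% of its median in the other strains in 57 of 57 strains. The highest share was 17.9% in ncs6D (7.43 RPKM, with 4.93 RPKM of footprints), followed by 4.79% in trm9D. Of 7 genes of mating type a, 6 had 11.6 to 933 RPKM of RNA and ASG7 2.81 to 11.3 RPKM. Of 4 alpha-type genes with a value, MF(ALPHA)1 and MF(ALPHA)2 reached at most 1.74 and 0.825 RPKM, STE3 9.85 RPKM, and SAG1 had 7.45 to 26.1 RPKM. URA3 and LEU2, deleted in the background, reached at most 0.275 and 0.277 RPKM. HIS3, another auxotrophic marker of the background, had 37.6 to 219 RPKM, and how much of this gene the strains lack was not examined. MET17, also deleted in BY4741, went against the labels: its RNA stood at 312 RPKM in pus7D, 311 in rit1D and 155 in kti11D, against at most 0.814 in the other 64 libraries, and its footprints exceeded 7.75 RPKM only in pus7D. Counts without these 3 strains are given below. The authors' ratio table divides strains by the means of 3 different groups of wild-type libraries, called wild-type sets below. No label says what the libraries of a set share. The strain dus2D matched none (it has a level of its own where the set is a term), and all 3 KEOPS strains fell in a set whose only remaining strain is trm9D. Wild-type footprint library 11 stood apart, with 29 members more than 4-fold above their median over libraries, and it raises several wild-type means below. Libraries 12, 13 and 14 of the same set had 10, 5 and 7 members so placed. Among deletion strains trm7D had 14 and 11, bud32D 10 and 3, and gon7D 8 and 9 in their 2 libraries, and no other library had more than 4.

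In wild type the members had a median ratio of 0.148 and the 3868 other ranked genes one of 1.07. Their median footprint level was 5.03 RPKM against 51.2 RPKM in the other genes, and their median RNA level was 32.0 RPKM against 48.0 RPKM. The rule, a low ratio above a fixed RNA minimum, sets these gaps. At the edge of the list RRN11 (0.264), UCC1 (0.264) and APP1 (0.2719) lay inside, and YPR158C-C (0.2719), GPB2 (0.2721) and PHO80 (0.2722) outside.

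**Figure D1:**
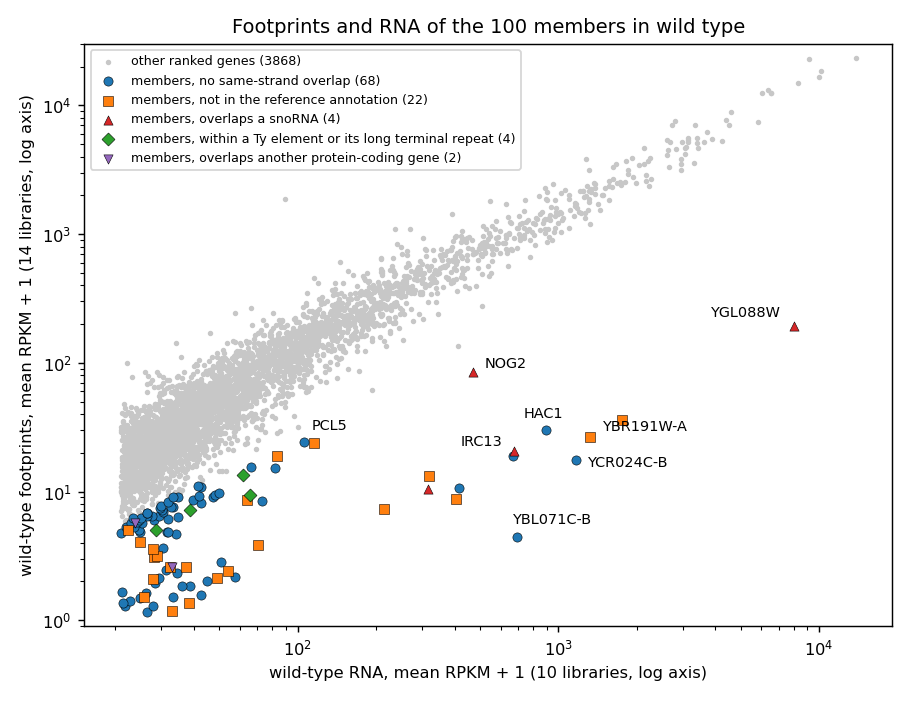
Mean wild-type footprints (14 libraries) against mean wild-type RNA (10 libraries), both as RPKM + 1 on log axes, for the 100 members by kind and the 3868 other ranked genes. The members lie below the band of other genes by construction, and 16 of them have RNA of at least 100 RPKM.

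The 100 were of several kinds. For 68 the annotation held no other feature on the same strand, 22 reading frames were not in the annotation used here, 4 overlapped a snoRNA, 4 lay within a Ty retrotransposon or its long terminal repeat, and 2 overlapped another protein-coding gene. Overlaps make the level of a message uncertain, since the reads of both features fall together, and Ty reading frames also have near-identical copies whose reads a unique-mapping rule drops. Only 51 members carry a gene symbol. Of 78 members with a known length, 23 had under 100 footprint reads summed over all 14 wild-type libraries (median 397), so single values there rest on few reads.

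YGL088W was the most abundant member. Its RNA averaged 7984 ± 743 RPKM (SD, n = 10) and its footprints ran over 29.2, 62.0 and 1482 RPKM (lowest, median and highest of 14 libraries). SNR10 covers 59% of this reading frame. HAC1 came next among members with a symbol, with 893 ± 33.1 RPKM of RNA (SD, n = 10) and footprints of 7.68, 10.3 and 191 RPKM over the 14 libraries. The highest of these is library 11, and the other 3 libraries of its set stood at 54.8, 28.1 and 32.7 RPKM, above the remaining 10, which reached 14.8 RPKM at most.

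IRC13, MTC7, NOG2 and MIN10 followed. IRC13 shares 78 bases with SNR17A, the gene of the U3 snoRNA, and its wild-type mean of 677 RPKM rests on 2 libraries: 2717 RPKM in library 6 and 3233 RPKM in library 9. Among deletion strains trm9D (2933 RPKM) and trm10D (3283 RPKM) did the same, while the other 63 RNA libraries reached at most 176 RPKM. MTC7 had 671 ± 30.8 RPKM of RNA (SD, n = 10) and footprints of 0.514, 1.46 and 152 RPKM (lowest, median and highest, n = 14). It starts 29 bases downstream of HYP2. NOG2, a GTPase of the large ribosomal subunit's assembly, was the best translated of these, with 83.8 RPKM of footprints and 471 ± 40.1 RPKM of RNA (SD, n = 10 for RNA). SNR191 fills 274 bases of its intron, which the authors' counting includes.

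The lowest ratios belonged to reading frames without an assigned function. YBL071C-B, of 99 bases, had 692 ± 50.3 RPKM of RNA (SD, n = 10), and its footprint reads recovered from the RPKM values summed to 17.2 over all 14 wild-type libraries. YCR024C-B had 1162 RPKM of RNA and a median of 0.679 RPKM of footprints, with 6 of 14 libraries at 0. YBR191W-A (1319 RPKM of RNA) and YMR013W-A (1759 RPKM) were not in the annotation, and their median footprints were 14.7 and 2.95 RPKM. YBR190W, MIN10, YJL047C-A and YFL032W completed the lowest 12 with ratios of 0.0215, 0.0258, 0.0329 and 0.0342. YJL047C-A shares 49 bases with the snoRNA gene SNR60.

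Features the rule did not use also set the 78 annotated members apart in level. An ATG (letters ATG, coding strand, in the 50 bases before the start) was present in 29 of 78 members (37.2%), against 14.3% of 3834 other annotated ranked genes. Where leaders begin was not measured, so these 50 bases can reach beyond a leader or, as for MTC7, into a neighbouring gene. Adenine 3 bases before the start, the favoured base there, was found in 44.9% of members and 64.3% of the others. Coding length under 400 bases was found in 28.2% of members and 8.16% of the others, and at least 2000 bases in 32.1% and 22.6%, so short and long frames were both more frequent. A Ty element or long terminal repeat lay within 1000 bases of 12.8% of members and 4.77% of the others. Among these, NDJ1, a meiotic telomere protein gene, starts or ends 249 bases from one, and YCL021W-A 72 bases.

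Members were counted on lists of regulatory genes. Of 48 ranked genes on a list of transcription factors 3 were members, PUT3 (proline use), HAC1 and GCR1 (glycolysis), and the list's median ratio was 0.722 against 1.06 over all ranked genes, of which 2.52% are members. Of 12 ranked mitochondrial translation and RNA factors 1 was a member, ATP22, needed to translate the mitochondrial ATP6 message (list median 0.507). None of 36 ranked kinase, cyclin and signalling genes (median 0.651) and none of 13 ranked genes reported to have a leader reading frame (median 0.765) was a member. No gene of the meiosis list passed the RNA minimum.

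Low translation held across the strains. Ranked by the same ratio within each of the 57 strains, 72 to 95 of the members (median 88) stood in that strain's own lowest 100. The fewest were in gon7D (72), bud32D (73), trm7D (76) and trm112D (80), which lacks an activator of several methyltransferases. Of the members, 47 were in the lowest 100 of every strain, among them GAL80, the repressor of Gal4, and VMR1, a vacuolar transporter. Another 8, named here after their values were seen where the naming rule does not cover them, were there in under 29 strains, namely APP1 (14), a phosphatidate phosphatase, TRK1 (17), the potassium importer, YIL047C-A (21), YDR024W (24), SLD7 and PUT3 (25 each), and PHO87, a phosphate transporter, and YPL034W (28 each). A member near the edge of the list can leave a strain's lowest 100 through a small change, and APP1 has rank 100.

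The ranking was similar in footprint libraries made without the drug. Their footprints were divided by RNA of the same strain, which the labels give as drug-treated. For BY4741 this was the wild-type RNA mean that the rule used, so its values here are partly set by the rule. Without cycloheximide 83 members stood in the lowest 100 of elp3D, 89 of mod5D, 88 of tan1D, 78 of trm7D, 86 of tyw4D and 88 of BY4741. In each of these 6 libraries all 100 members lay below the median ratio of all genes, and 14 to 24 had no footprint. For 2 of the 100 members the 57 drug-treated strains and the drug-free libraries did not overlap. Of all 6692 genes, 2 were lower in every drug-treated strain than in all drug-free libraries, and 23 were higher. YGL088W had 14.2 to 99.9 RPKM of footprints in drug-treated strains, against 427 to 700 RPKM in the drug-free libraries, although drug-treated BY4741 reached 1482 RPKM. IRC13 had 5.06 to 45.7 RPKM in drug-treated strains, against 0 to 1.86 RPKM in the drug-free libraries.

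For the comparisons, log2(RPKM + 1) was tested with limma over all genes with at least 2 RPKM on average, wild-type libraries left out, and a gene was called at a Benjamini-Hochberg adjusted p under 0.05. In footprints 64 of the 100 members passed that minimum, and 11 reached 10 RPKM. Among the 64, YEL045C averaged 3.56 RPKM and 1.80 RPKM without trm7D, gon7D and bud32D, and YFL032W 2.02 RPKM and 1.79 RPKM without trm7D, bud32D and sap190D. These 2 passed only through their 3 highest strains, so nothing is read from their calls. They remain in the counts below, and their footprint changes are given as values without a test. In RNA all 100 passed. Footprints minus RNA on the log2 scale is called translational efficiency below. The 64 varied more among strains than genes in general, with a median SD of 0.36 in log2 footprints against 0.24 over all 5162 tested genes, while their RNA varied about as much (0.19 and 0.18). Footprints followed RNA less closely, with a median Pearson r over the 57 strains of 0.33 for the members and 0.51 for all tested genes. The spread of low counts adds to that of strains, and its share was not tested.

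Loss of Elongator lowered the footprints of HAC1 and of Ty reading frames and raised those of NOG2. Of the 64 tested members 8 rose and 11 fell in the 9 Elongator strains, next to 23.9% and 12.6% of all tested genes, and the members' median change was 0.00 against 0.05. HAC1 footprints were 4.28, 5.71 and 8.26 RPKM in Elongator strains (lowest, median and highest, n = 9), against 7.69, 12.2 and 84.3 RPKM in the 40 remaining strains. Only elp5D, the highest, reached into the range of the remaining strains, whose top value is trm9D with 160 RPKM in library 1 and 8.60 in library 2. HAC1 fell by 0.93 on the log2 scale (SE 0.13, limma adjusted p = 1.3e-07), in 9 of 9 strains below the remaining mean, and by 1.00 with the wild-type set as a term. Its RNA was 748, 795 and 861 RPKM in Elongator strains and 637, 873 and 1179 RPKM in the remaining strains, so the ranges overlap. RNA fell by 0.16 (SE 0.06, limma adjusted p = 0.036) and translational efficiency by 0.77 (SE 0.16, adjusted p = 0.001). Within sets HAC1 footprints spanned 4.28 to 5.25 RPKM in Elongator strains and 7.68 to 9.42 RPKM in wild type of set 1, 5.71 to 7.04 and 8.91 to 14.8 in set 2, and 5.66 to 8.26 and 28.1 to 191 in set 3. These wild-type values helped to choose HAC1, so nothing is read from the gaps. Wild type of set 3 is libraries 11 to 14, described above.

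NOG2 moved the other way. Its footprints were 88.2, 107 and 120 RPKM in Elongator strains (lowest, median and highest, n = 9), against 60.5, 72.7 and 132 RPKM in the remaining strains, where trm112D is highest. Its RNA was 393, 425 and 469 RPKM in Elongator strains and 358, 455 and 778 RPKM in the remaining strains. Elongator strains thus stood near the top in footprints and within the range in RNA. NOG2 footprints rose by 0.50 (SE 0.07, limma adjusted p = 1.6e-08) and translational efficiency by 0.62 (SE 0.06, adjusted p = 5.9e-11), each in 9 of 9 strains above the remaining mean. Since the counts span the intron, unspliced RNA or snoRNA reads in either library type would be included, and their part was not tested.

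**Figure D2:**
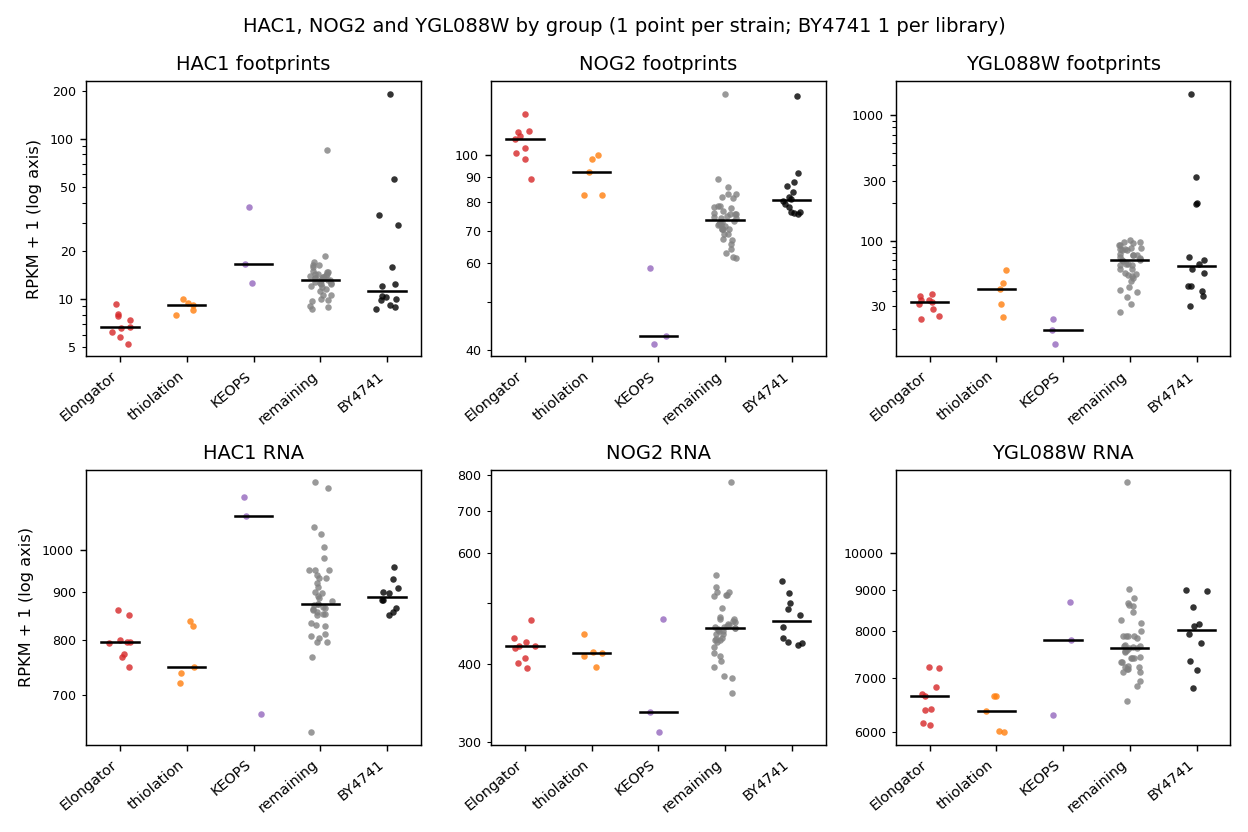
Footprints (top) and RNA (bottom) of HAC1, NOG2 and YGL088W as RPKM + 1 on log axes, with 1 point per strain for Elongator (9), thiolation (5), KEOPS (3) and remaining strains (40), 1 point per library for BY4741 (14 footprint, 10 RNA) and a line at each median. HAC1 footprints lie lowest in Elongator strains and NOG2 footprints lie lowest in KEOPS strains.

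YGL088W footprints were 22.6, 31.5 and 36.4 RPKM in Elongator strains (lowest, median and highest, n = 9), against 26.3, 69.4 and 99.9 RPKM in the remaining strains. Elongator strains filled the low end of that range. The fall was 1.06 (SE 0.16, limma adjusted p = 4.5e-07), and RNA fell by 0.23 (SE 0.05, adjusted p = 0.00046, not held in every alternative). In translational efficiency 6 members rose and 6 fell, next to 9.04% and 2.46% of all genes tested. Of the 11 members whose footprints fell, 10 also fell in RNA and 4 in translational efficiency, next to 73.6% and 12.3% of all 648 genes whose footprints fell. Of the 8 whose footprints rose, 1 rose in RNA and 3 in translational efficiency, next to 54.6% and 29.1% of all 1235 genes whose footprints rose. The others that rose included PHO87 (0.43), GAL80 (0.30), ATP22 (0.25), YPL034W (0.66) and YBR076C-A (0.57), but of the 8 only NOG2 passed in every alternative setting, as did 9 of the 11 that fell. YFL032W, the reading frame numbered next to HAC1 (YFL031W), differed by −0.97, given without a test. YBR076C-A and YFL032W are not in the annotation, so reads shared with another gene could not be checked. Without kti11D, rit1D and pus7D, an alternative added after seeing the data, 4 members rose and 10 fell.

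Ty reading frames fell in both assays. YMR046C footprints were 6.66, 7.95 and 9.83 RPKM in Elongator strains (lowest, median and highest, n = 9) and 6.01, 12.5 and 16.3 RPKM in the remaining strains. The ranges overlap, with sit4D lowest of the remaining strains. YMR046C fell by 0.49 in footprints (SE 0.09, limma adjusted p = 3.7e-05) and 0.78 in RNA (SE 0.10, adjusted p = 3e-09), YMR045C by 0.42 and 0.71, YOL103W-A by 0.67 and 1.55, and YER138W-A by 1.35 and 1.33. YMR046C lies wholly within YMR045C, so these 2 share reads. VMR1 also fell in footprints, by 0.43 (SE 0.11, limma adjusted p = 0.002).

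In RNA 8 members rose and 22 fell in Elongator strains, next to 16.3% and 18.2% of all genes tested (7 and 16 without kti11D, rit1D and pus7D). The lowest RNA was that of NDJ1, beside a long terminal repeat: 4.37, 7.62 and 9.59 RPKM in Elongator strains (lowest, median and highest, n = 9) and 5.63, 26.2 and 45.3 RPKM in the remaining strains. Its RNA fell by 1.66 (SE 0.15, limma adjusted p = 2.4e-13). YCL021W-A, 72 bases from a repeat, fell by 0.81 (SE 0.13, adjusted p = 2.8e-06). YDR133C, not in the annotation, was the member that rose most, at 435, 543 and 672 RPKM in Elongator strains and 274, 310 and 477 RPKM in the remaining strains (0.74, SE 0.08, adjusted p = 1.2e-11). Its footprints stood at 6.85, 8.46 and 14.2 RPKM in Elongator strains and at 3.39, 8.51 and 16.4 RPKM in the remaining strains, fully overlapping, so its translational efficiency fell by 0.62 (SE 0.15, adjusted p = 0.0043).

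The thiolation strains share these 40 strains as reference, so their values stand beside those of Elongator and are not independent of them. In footprints 1 member rose and 5 fell, next to 7.61% and 6.66% of all tested genes, and none held in every alternative setting. The 6 calls became 1 without urm1D, 3 without uba4D and 3 without ncs6D. HAC1 footprints were 6.99 RPKM in urm1D, 8.17 in uba4D, 8.47 in tum1D, 9.0 in ncs2D and 7.51 in ncs6D, against 7.69, 12.2 and 84.3 RPKM in the remaining strains (lowest, median and highest, n = 40). Only urm1D and ncs6D lay below all remaining strains. HAC1 fell by 0.57 (SE 0.17, limma adjusted p = 0.015, up to 0.11 in the alternatives). NOG2 was the member that rose, with 98.9 RPKM in urm1D, 96.9 in uba4D, 81.9 in tum1D, 81.6 in ncs2D and 91.0 in ncs6D, against 60.5, 72.7 and 132 RPKM in the remaining strains. All 5 lay above the median of the remaining strains and within their range. NOG2 footprints rose by 0.28 (SE 0.09, limma adjusted p = 0.015), and NOG2 alone was called in translational efficiency (0.43, SE 0.08, adjusted p = 0.0032), next to 0.0582% of all genes tested called higher and 0.116% called lower (0.175% in all).

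The other members that fell in thiolation strains were YER138W-A (by 1.5), DMO1 (1.16), YGL088W (0.74) and GCR1 (0.22). The difference between Elongator and thiolation strains was itself tested: limma called no member at an adjusted p under 0.05, next to 0.0194% of all tested genes called. At an unadjusted p under 0.05 there were 4 of 64 members (6.25%) and 9.51% of all tested genes. In RNA 5 members rose and 8 fell in thiolation strains, next to 9.15% and 7.16% of all genes tested. NDJ1 RNA was 10.7 RPKM in urm1D, 8.80 in uba4D, 15.6 in tum1D, 10.6 in ncs2D and 9.16 in ncs6D, against 5.63, 26.2 and 45.3 RPKM in the remaining strains. All 5 lay below the median of the remaining strains, and NDJ1 fell by 1.14 (SE 0.19, limma adjusted p = 1.3e-05). YOL103W-A and YER138W-A fell by 0.89 and 0.72 and YDR133C rose by 0.69, all 3 in every alternative.

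In KEOPS strains QDR3 footprints rose most among the members. The shares of members called in footprints (46.9% higher, 12.5% lower) lay near those of all tested genes. The whole table moved as well: the median change of all genes in KEOPS strains was 0.20 in footprints and 0.18 in RNA, so changes are read against these. Of 64 tested members 30 rose and 8 fell in footprints, next to 41.1% and 15.1% of all tested genes, and the members' median was 0.41 against 0.20. The 30 include YEL045C, from whose call nothing is read. In RNA 52 rose and 12 fell of 100, next to 47.1% and 16.6% of all genes tested, and the median was 0.27 against 0.18. In translational efficiency 17 rose and 13 fell, next to 12.4% and 9.43%, with medians of 0.03 and 0.06, and these 30 calls became 19 without bud32D and 16 without gon7D. With the wild-type set as a term, which leaves trm9D as the only remaining strain of the KEOPS set, 24 rose and 7 fell in footprints (36% of all tested genes called), 38 and 3 in RNA (44%), and 11 and 15 in translational efficiency (14%). Without kti11D, rit1D and pus7D the footprint counts were again 30 and 8. Groups did not overlap at all for 5 members in footprints (QDR3, APP1, NOG2, YGL088W and, outside the naming rule and named after its values were seen, RIM21), where 56.2% of all tested genes were called and 3.02% did not overlap.

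QDR3 encodes a multidrug transporter of the plasma membrane. Its footprints were 102 RPKM in bud32D, 84.9 in gon7D and 36.1 in cgi121D, against 3.87, 5.71 and 27.3 RPKM in the remaining strains (lowest, median and highest, n = 40), where trm7D is highest. All 3 KEOPS strains lay above every remaining strain. Its RNA was 204 RPKM in bud32D, 162 in gon7D and 91.1 in cgi121D, against 24.5, 28.4 and 64.9 RPKM in the remaining strains, again without overlap. QDR3 rose by 3.28 in footprints (SE 0.24, limma adjusted p = 5e-16), 2.26 in RNA (SE 0.15, adjusted p = 4e-18) and 1.02 in translational efficiency (SE 0.14, adjusted p = 9.4e-08).

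ATG5, an autophagy protein joined to Atg12, rose mostly in footprints. It had 27.8 RPKM in bud32D, 23.1 in gon7D and 10.5 in cgi121D, against 2.38, 6.31 and 11.3 RPKM in the remaining strains. Only cgi121D lay within the range of the remaining strains. Its RNA stood at 36.1, 37.7 and 58.8 RPKM in KEOPS strains and at 26.7, 34.1 and 48.3 RPKM in the remaining strains. The footprint rise was 1.51 (SE 0.20, limma adjusted p = 8.4e-09) and that of translational efficiency 1.20 (SE 0.21, adjusted p = 1.3e-05). RNA rose by 0.31, a change that did not hold in every alternative.

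**Figure D3:**
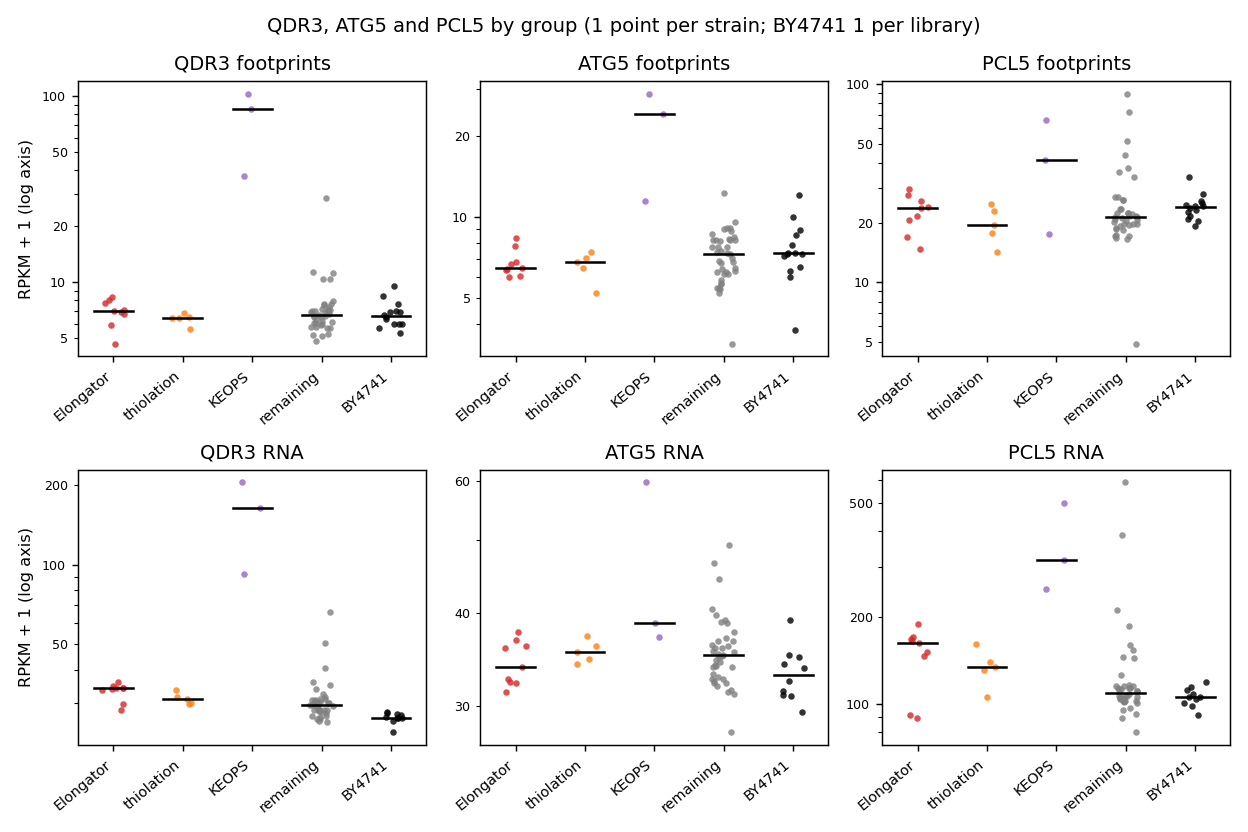
Footprints (top) and RNA (bottom) of QDR3, ATG5 and PCL5 as RPKM + 1 on log axes, with 1 point per strain for Elongator (9), thiolation (5), KEOPS (3) and remaining strains (40), 1 point per library for BY4741 (14 footprint, 10 RNA) and a line at each median. QDR3 lies above all other groups in KEOPS strains in both assays, and ATG5 chiefly in footprints.

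Several reading frames of little known function differed more in footprints than in RNA. YEL045C is not in the annotation used here, so reads shared with another gene could not be checked. It had 26.8 RPKM in bud32D, 34.1 in gon7D and 7.54 in cgi121D, against 0, 1.78 and 44.4 RPKM in the remaining strains, where trm7D is highest. Its difference was 2.86 in footprints, with no test since bud32D and gon7D helped it pass the minimum. DMO1, whose upstream ATG is printed above, had 48.5, 47.4 and 19.1 RPKM in bud32D, gon7D and cgi121D, against 1.84, 6.49 and 46.8 RPKM in the remaining strains, trm7D again being highest. It rose by 2.19 in footprints (SE 0.37, adjusted p = 2.3e-06). YHR050W-A rose by 2.35 (SE 0.68, adjusted p = 0.0031) and YGR025W by 1.74 (SE 0.50, adjusted p = 0.0028), the second not in every alternative. In RNA the changes of YEL045C (−0.14), DMO1 (0.38) and YGR025W (0.03) did not pass the test, and YHR050W-A rose by 0.55.

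Among larger genes PHO87 footprints were 23.1 RPKM in bud32D, 28.7 in gon7D and 16.3 in cgi121D, against 5.67, 7.96 and 28 RPKM in the remaining strains. Of the remaining strains trm7D (28 RPKM) and trm112D (27.8 RPKM) lay within the KEOPS range, and PHO87 rose by 1.27 (SE 0.23, limma adjusted p = 1e-05), with 0.99 in translational efficiency (adjusted p = 9.7e-05). APP1 footprints were 28.2 RPKM in bud32D, 25.9 in gon7D and 12.4 in cgi121D, against 5.74, 8.18 and 11.3 RPKM in the remaining strains. The groups did not overlap, and APP1 rose by 1.23 (SE 0.13, adjusted p = 3.4e-11). Other genes that rose were ATP22 (0.77), EXO5 (0.75), a mitochondrial exonuclease, and SPR6 (0.95), a sporulation gene, each in every alternative setting.

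Some members fell in KEOPS strains against the general rise. NOG2 had 40.2 RPKM in bud32D, 41.6 in gon7D and 57.8 in cgi121D, against 60.5, 72.7 and 132 RPKM in the remaining strains, with no overlap. It fell by 0.67 (SE 0.11, limma adjusted p = 7e-07). YGL088W had 14.2, 18.6 and 22.9 RPKM in bud32D, gon7D and cgi121D, against 26.3, 69.4 and 99.9 RPKM in the remaining strains, also without overlap, and fell by 1.91 (SE 0.26, adjusted p = 2.9e-08). VMR1 fell by 1.30 (SE 0.18, adjusted p = 4.7e-08), with 0.633 RPKM in bud32D, 0.585 in gon7D and 1.49 in cgi121D against 1.43, 3.48 and 6.27 RPKM in the remaining strains, where only cgi121D overlaps. HST1, a histone deacetylase, had 7.55 RPKM in bud32D, 6.23 in gon7D and 11 in cgi121D, against 9.41, 13 and 19.6 RPKM in the remaining strains, with cgi121D inside their range. It fell by 0.64 in footprints (SE 0.14, adjusted p = 8e-05, up to 0.066 in the alternatives) and by 0.89 in translational efficiency (adjusted p = 4.2e-06).

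**Figure D4:**
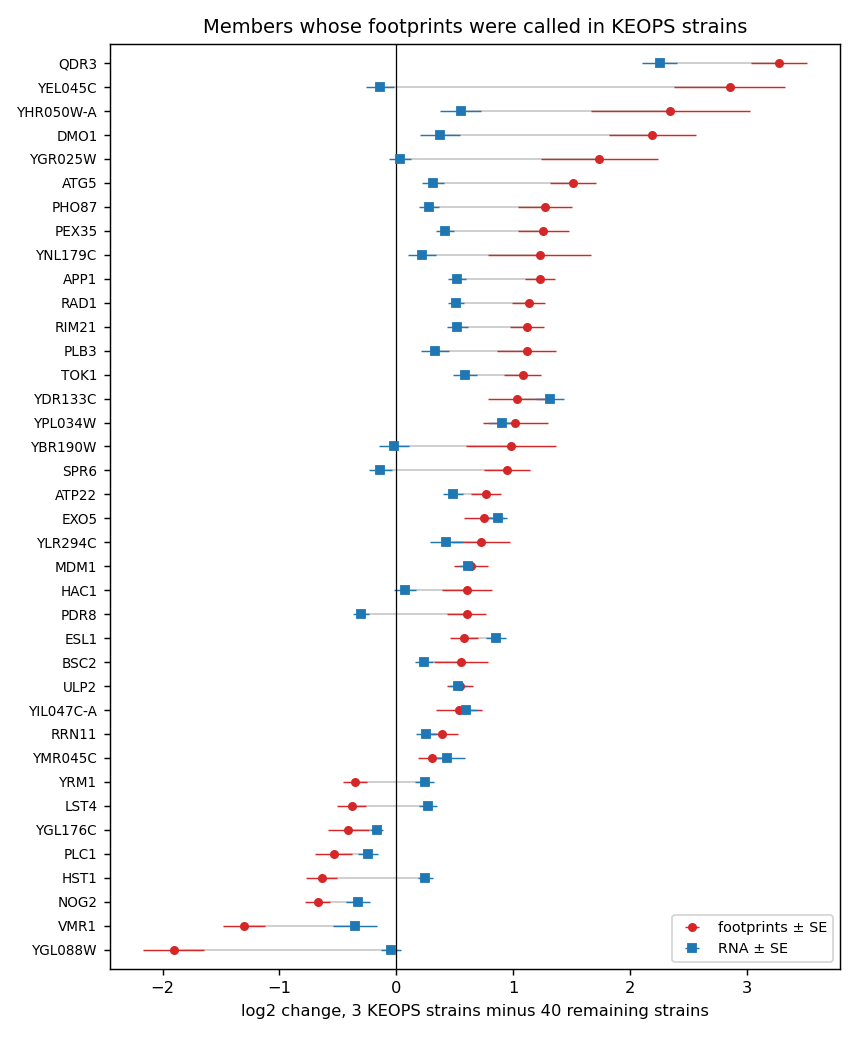
Log2 change ± SE in the 3 KEOPS strains minus the 40 remaining strains, in footprints (circles) and RNA (squares), for the 38 members whose footprints were called (YEL045C passed the minimum only through its 3 highest strains). QDR3 is highest at 3.28 in footprints and 2.26 in RNA, and YGL088W is lowest at −1.91 in footprints.

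PCL5, a cyclin of the Pho85 kinase that helps to turn over Gcn4, differed between the assays. Its RNA was 250 RPKM in bud32D, 316 in gon7D and 498 in cgi121D, against 78.8, 109 and 589 RPKM in the remaining strains. Its footprints were 16.6 RPKM in bud32D, 40.6 in gon7D and 64.9 in cgi121D, against 3.90, 20.4 and 88.8 RPKM in the remaining strains. RNA was thus high in all 3 KEOPS strains, within the range of the remaining strains, while footprints in bud32D lay below their median. RNA rose by 1.48 (SE 0.29, limma adjusted p = 1.4e-05) and translational efficiency fell by 0.84 (SE 0.23, adjusted p = 0.0045). PUT3 likewise rose by 0.58 in RNA and fell by 0.67 in translational efficiency, and LST4, part of a Rag GTPase activator, by 0.65.

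The largest RNA rises after QDR3 and PCL5 were YDR133C (1.32), CNM1, a protein of contacts between mitochondria and the endoplasmic reticulum (1.10), YPL034W (0.91) and EXO5 (0.87), all in 3 of 3 strains and in every alternative. The RNA of YER138W-A fell by 1.41 (SE 0.22, limma adjusted p = 1.4e-07) and that of MIN10 by 0.45 (SE 0.10, adjusted p = 4.7e-05). HAC1 footprints were 36.8 RPKM in bud32D, 11.7 in gon7D and 15.6 in cgi121D, against 7.69, 12.2 and 84.3 RPKM in the remaining strains. Only bud32D stood out, and the rise of 0.61 (SE 0.22, adjusted p = 0.014) turned to −0.10 with the wild-type set as a term.

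Of the 30 members whose footprints rose in KEOPS strains, 22 rose in RNA and 15 in translational efficiency, next to 80.4% and 19.7% of all 2121 genes whose footprints rose. Of the 8 that fell, 3 fell in RNA, 3 rose in RNA and 6 fell in translational efficiency, next to 69%, 6.53% and 31.9% of all 781 genes whose footprints fell. Among tested members with an ATG in the 50 bases before the start, 11 of 19 rose and 3 fell (median change 0.55), and among annotated members without one, 13 of 34 rose and 5 fell (median 0.23). Over all ranked and tested genes 43.9% rose and 12.8% fell with such an ATG (n = 569, median 0.23), and 34.6% rose and 19.6% fell without (n = 3318, median 0.11). The difference was not tested. In Elongator strains the medians were −0.01 with the ATG and −0.03 without.

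The same term gave 5 members up and 13 down in Elongator footprints (35.2% of all tested genes called), 7 and 16 in RNA (30.6%), and 3 and 6 in translational efficiency (9.41%). In thiolation strains it gave 1 and 7 in footprints (20.3%), 5 and 7 in RNA (16.8%), and 1 and 0 in translational efficiency (0.97%). For the difference of Elongator and thiolation it gave 0 (limma, 0.0969% of all tested genes called). Against wild type, whose values chose the members, nothing is read from the counts. They were 13 in Elongator, 11 in thiolation and 32 in KEOPS footprints, next to 30.7%, 17.5% and 56.8% of all tested genes. In RNA they were 21, 16 and 60, next to 27.9%, 17.5% and 65%, and in translational efficiency 2, 0 and 20, next to 0.407%, 0% and 9.21%.

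Strain by strain, the members' footprints were called in 323 member-by-strain pairs (194 higher and 129 lower, limma on the 2 libraries of each of 56 strains against the mean of the others), next to 8.94% and 7.51% of all gene-by-strain pairs (16.4% in all). Against strains of the same wild-type set 164 were higher and 108 lower (11% of all pairs called), and against wild type 146 were higher and 162 lower (14.5%). Of the 323 calls 164 came from 5 strains: bud32D (33 higher, 10 lower), trm7D (31 and 2), gon7D (30 and 10), trm112D (21 and 10) and sit4D (5 and 12). Each count is out of 64 tested members. Of all tested genes 45.4% were higher and 19.7% lower in bud32D, 34.4% and 18.8% in trm7D, and 51.4% and 20.2% in gon7D. In trm112D these shares were 55.3% and 14.6%, and in sit4D 22.9% and 21.6%. Many genes of the whole table were thus called in these strains. In 14 strains no member was called and in 41 at most 5 were. TRM7 encodes an enzyme that methylates riboses in anticodon loops, and SIT4 a protein phosphatase needed for Elongator function. In trm7D the members' median change was 0.49 against 0.13 over all genes, and in trm112D 0.27 against 0.32.

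**Figure D5:**
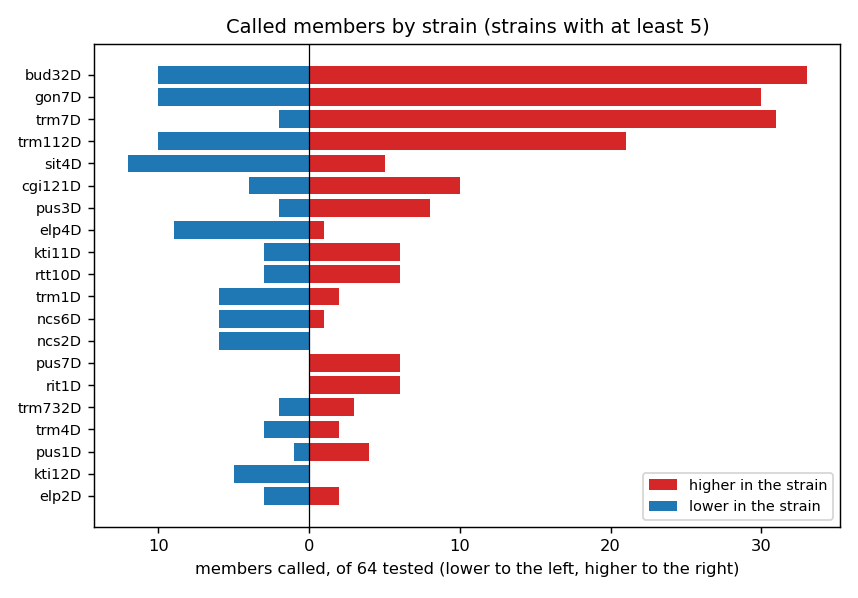
Number of members, of 64 tested, whose footprints were higher (right) or lower (left) in a strain than the mean of the other strains, for strains with at least 5 called. bud32D, gon7D, trm7D and trm112D had 33, 30, 31 and 21 higher, next to 45.4%, 51.4%, 34.4% and 55.3% of all tested genes.

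In trm7D YEL045C had 47.3 and 41.5 RPKM in its 2 footprint libraries, against a median of 1.72 RPKM in the other strains, a difference given without a test. The libraries of gon7D (25.5 and 42.7 RPKM) and bud32D (39.0 and 14.5 RPKM) reached similar levels. YEL045C RNA was 111 RPKM in trm7D, the highest of the 57 strains, and 69.9 RPKM as the median of the others. YNL179C had 30.5 and 33.2 RPKM of footprints in trm7D against 2.20 RPKM (3.32, limma adjusted p = 7.5e-09), while its RNA was 15.9 RPKM in trm7D and 21.9 RPKM as the median of the others. Like YEL045C it is not in the annotation, so reads shared with another gene could not be checked. In trm112D PCL5 had 2.45 and 5.36 RPKM against 20.6 RPKM in the others (−2.34, limma adjusted p = 1.2e-16), while its RNA was 94.1 RPKM in trm112D and 113 RPKM as the median of the others. PCL5 has 690 coding bases, and the 2 trm112D footprint libraries hold 1.78 and 0.811 M reads. The second is the shallowest of the 127, so both PCL5 values rest on few reads. In sit4D PCL5 had 50.2 and 51.5 RPKM of footprints against 20.5 RPKM (1.19, limma adjusted p = 3.5e-07). Its RNA was 154 RPKM in sit4D, against a median of 113 RPKM over all 57 strains. PCL5 footprints were thus low in trm112D and high in sit4D, where RNA also lay above the median. YBR191W-A was listed at 0 in both libraries of trm112D and of sit4D, as it was in 8 of 56 strains in all. At the depth of trm112D a 0 can hide a low level.

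The members called in most strains were NOG2 (20 strains), YOL103W-A (16) and PCL5, QDR3 and YGL088W (13 each). NOG2 was higher in 11 strains, of which 7 were Elongator and 3 thiolation strains, and lower in 9, among them all 3 KEOPS strains and trm7D. By likeness of footprints over the 57 strains, YEL045C was closest to QDR3 (Pearson r = 0.80), TOK1 (0.69) and DMO1 (0.68), YHR050W-A to EXO5 (0.66), and YER138W-A to YOL103W-A (0.57), YMR046C (0.52) and YMR045C (0.48). These are descriptions over strains that share wild-type sets and depth. The r values of YEL045C include trm7D, gon7D and bud32D, through which it passed the minimum.

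The drug-free libraries gave a separate look at trm7D and elp3D, with 1 library each and no replicate. Without the drug QDR3 had 30.5 RPKM in trm7D and 4.04 RPKM in BY4741, YEL045C 10.3 and 0.716, PHO87 24.8 and 6.15, and PCL5 44.5 and 15.5. All 4 were higher in trm7D, as they were with the drug. DMO1 was not, at 3.34 RPKM in trm7D and 3.04 in BY4741, nor was YGR025W, at 0.967 and 1.01. Of the 31 members called higher in trm7D with the drug, 22 exceeded all 5 other drug-free libraries. Of all tested genes, called or not, 52.0% did. In elp3D without the drug HAC1 had 6.76 RPKM and NOG2 105 RPKM, against 12.6 and 76.4 RPKM in BY4741, both in the direction seen with the drug. Of the members that rose in Elongator strains 3 of 8 exceeded all 5 other drug-free libraries in elp3D (22.3% of all tested genes did), and of those that fell 4 of 11 lay below all 5 (17.7%). The shares for trm7D and elp3D are over all tested genes and not over called ones, so they are not a like comparison.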

How the data were processed

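Ribosome footprints and RNA were measured as RPKM, deposited by the authors in tables of all libraries. Per the submitters' processing notes the tools were TopHat2 2.0.12, HOMER 4.6 and SAMtools on build sacCer3. Per the labels, only uniquely mapped reads were kept: RNA reads had 27 nt, and footprint reads 27 to 34 nt. PCR copies are not distinguished, so repeated molecules add to the spread. A ratio table deposited by the authors was used only to read which wild-type libraries each strain was divided by. Whole reads were recovered from the RPKM steps within 0.1 for 98.4% to 100% of values up to 20 reads, which gave the depths. HAC1 footprints came out whole in 125 of 127 libraries with the gene span of 969 bases and in 24 with the coding length of 717, so introns were included.

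The rank, the filter (mean of at least 2 RPKM over strains) and the log2(RPKM + 1) values were computed in Python 3.11.15 with pandas 2.3.3. Fold changes on that scale understate those of low genes. Tests used limma 3.58.1 (trend) in R 4.3.3 on strain means, with Benjamini-Hochberg adjustment over 5162 genes (footprints), 5604 (RNA) or 5156 (footprints minus RNA), and were checked on simulated data. Wild-type libraries chose the members and stayed out of the tests. The text names the 12 lowest ratios, the 8 most abundant members with a symbol, the largest called changes of each comparison and of the 5 strains with most calls, the most variable members, list members and genes at the threshold. The members and lists were chosen with earlier results of these data known. Alternatives were other pseudocounts, filters, scalings, references, single libraries, left-out strains and a wild-type-set term. Sequences came from RefSeq R64, where 6008 of 6692 table identifiers were found.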

Additional observations from a re-analysis of the deposited data

Results flagged for a closer look

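QDR3 RNA in BY4741 library 9 was 22.2 RPKM, farther below the next lowest of the 10 wild-type libraries (24.7 RPKM) than the spread of the rest would give at the 95% level. It was the 1 sample so placed among 20 groups examined, and chance gives about 1 in 20. Wild-type RNA enters the ranking and not the tests.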

How the results depend on the processing

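Of 3304 alternative values for 213 called member results, 2794 kept direction and call, 501 kept direction and lost the call, and 9 changed sign; 89 results passed in every alternative. With a minimum of 10 RPKM, which leaves 11 members in footprints, called members numbered 5 (Elongator), 3 (thiolation) and 6 (KEOPS) in footprints, 5 and 5 in translational efficiency of Elongator and KEOPS strains, and 92 in single strains. With wild type as reference they numbered 11 in thiolation footprints, 2 in Elongator translational efficiency and 0 in thiolation translational efficiency (limma, 16 at an unadjusted p under 0.05). With footprint library 2 alone they numbered 12 and 3 in Elongator and thiolation footprints, and 5 and 0 in their translational efficiency (limma, 6 at an unadjusted p under 0.05 for the 0). Thiolation translational efficiency gave 2 with a pseudocount of 0.25, 2 with 4 and 2 without a filter. RNA gave 24 in thiolation strains without trm9D, trm112D and sit4D in the reference, and 41 in KEOPS strains with the wild-type set as a term. The cause was not tested.

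Leaving out 1 strain gave 14 to 19 (Elongator), 1 to 5 (thiolation) and 27 to 41 (KEOPS) in footprints, 22 to 27, 8 to 12 and 48 to 70 in RNA, and 8 to 13, 1 to 1 and 16 to 32 in translational efficiency. Single strains gave 68 to 69 calls with 1 library each. Of the 100 members, 53 remained with an RNA minimum of 10 RPKM, 26 with 50 RPKM, and 98 to 100 without 1 wild-type library.

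In KEOPS strains the sign changed for HAC1 footprints (−0.10) and RNA of YLR402W (0.0049) and YMR013W-A (−0.20) with the set term, for YMR045C footprints (−0.0904) and RNA of YBR191W-A (0.0218), CSF1 (−0.0528) and YRM1 (−0.00039) with quantile normalization, for CSF1 with centring (−0.0352), and for YRM1 without bud32D (−0.0336, up to 0.436 without gon7D).

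The replicate number of the labels as a block gave 326 single-strain calls, against 323. Same-numbered libraries of different strains share only a number: over 1540 strain pairs the correlation of their deviations ran between −0.31 and 0.20 (median 0.01).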
